A study of Homo sapiens with 24 samples.

Results

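The cholesterol and fatty acid synthesis genes described here are 31 genes of the SREBP pathway, picked by name from the 58138 gene names in the count tables. They comprise 5 regulators, the sterol carrier STARD4, 7 genes of the mevalonate and isoprenoid steps, 10 genes of the steps from squalene formation to cholesterol, and 8 genes of fatty acid synthesis, elongation and desaturation. The members were chosen for their known function, with earlier results of these data known.

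The series asked how RPRD proteins shape the amount of RNA at steady state. The data are 24 QuantSeq 3′ libraries, which read polyadenylated transcripts near their 3′ ends, in 12 groups of 2. In HEK293T, a human embryonic kidney line carrying the SV40 large T antigen, cells were transfected with control siRNA (CTRL) or with siRNAs in 7 silenced groups. Of these, 3 name 1 gene (RPRD1A_KD, RPRD1B_KD, RPRD2_KD), another 3 a pair (RPRD1A_RPRD1A_KD, RPRD1A_RPRD2_KD, RPRD1B_RPRD2_KD), and the last all 3 genes (RPRD1A_RPRD1B_RPRD2_KD). In Flp-In T-REx 293, a kidney line that carries the tetracycline repressor and a single docking site for an inserted gene, the parent (FLP) and a line labelled RPRD1B_FL were compared without tetracycline and with it (FLP_TET and RPRD1B_FL_TET). All Flp-In groups share the repressor and the docking site. The labels give 48 h of siRNA or tetracycline, do not spell out FL, and do not say whether RPRD1B_FL is 1 clone or a pool. They also do not say whether replicates were separate cultures, so p-values measure only the spread between these samples, which may be technical. The group labelled RPRD1A_RPRD1A_KD is kept as labelled, although RPRD1B stood there at 39.1% of its CTRL level.

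Sterol regulatory element-binding proteins are membrane-bound transcription factors made from SREBF1 and SREBF2. When membranes of the endoplasmic reticulum hold little sterol, the escort protein SCAP carries them to the Golgi, where proteases free their active part. When sterol is plentiful, INSIG1 and INSIG2 hold SCAP back. The freed factors switch on cholesterol synthesis genes and fatty acid synthesis genes, usually together with the cofactors NF-Y, which binds CCAAT boxes, and Sp1, which binds GC boxes. In cultured kidney cells this pathway supplies membrane lipids for growth, and its activity follows the sterol content of the medium.

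The promoters of HMGCS1, INSIG1 and FADS1 are shown as examples of members described below. Several other members had larger differences than INSIG1. Each run is the 250 bases before the gene's start from RefSeq (GRCh38.p14), written 5′ to 3′ along the gene, with matches to 3 motifs in capitals. The motifs were TCACNCCAC (an SRE-like motif), CCAAT (the CCAAT box) and GGGCGG (the Sp1 box), searched on both strands, so ATTGG and CCGCCC are the same boxes on the other strand. Overlapping GC boxes appear as 1 longer run.
HMGCS1, chr5:43313413-43313662, minus strand: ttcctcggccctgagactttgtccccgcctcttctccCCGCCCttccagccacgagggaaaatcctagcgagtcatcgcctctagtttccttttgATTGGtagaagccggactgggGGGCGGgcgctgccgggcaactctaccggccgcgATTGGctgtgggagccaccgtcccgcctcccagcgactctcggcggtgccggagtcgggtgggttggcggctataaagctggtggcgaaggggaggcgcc
INSIG1, chr7:155297628-155297877, plus strand: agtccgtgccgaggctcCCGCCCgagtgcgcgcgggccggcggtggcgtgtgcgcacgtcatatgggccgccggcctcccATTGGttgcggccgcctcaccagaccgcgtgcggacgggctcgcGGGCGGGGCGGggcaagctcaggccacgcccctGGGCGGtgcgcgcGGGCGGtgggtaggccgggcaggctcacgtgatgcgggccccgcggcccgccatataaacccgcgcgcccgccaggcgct
FADS1, chr11:61817004-61817253, minus strand: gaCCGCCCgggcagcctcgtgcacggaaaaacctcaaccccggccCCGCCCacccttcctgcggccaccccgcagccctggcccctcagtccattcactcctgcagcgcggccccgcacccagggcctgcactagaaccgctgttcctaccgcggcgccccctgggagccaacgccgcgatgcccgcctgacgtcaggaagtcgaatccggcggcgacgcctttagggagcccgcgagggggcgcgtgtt

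RefSeq promoter windows, from 250 bases before to 50 after the start, matched 27 of the 31 members by symbol. A GC box was present in 25 of these 27 (92.6%), against 44.6% of all 27305 windows. A CCAAT box was present in 17 of 27 (63%), against 35.7% of all windows. HMGCS1 held 2 CCAAT boxes, 155 and 100 bases before its start, INSIG1 held 1 at 170 bases, and FADS1 held none. The SRE-like motif was found in 1 member promoter, that of SREBF2 (133 bases before the start), and in 1.15% of all windows. A match of letters is a description and not a binding site, and a missing match says only that these letters are not in the window.

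Libraries held from 1817246 to 3531106 counts in genes, and 3 counts, the detection limit used here, amount to 0.85 to 1.65 CPM (counts scaled to library size, here by TMM over all 24 libraries). This detection limit covers counting error only. RPRD1A stood at 12.2% to 16.3% of its CTRL level in the groups whose label names it, and at 48% to 58.5% in the other silenced groups. RPRD1B stood at 27.2% to 37.2% and RPRD2 at 32.6% to 61% where named. RPRD1B was at 78.5 CPM in RPRD1B_FL_TET against 30.7 CPM in FLP_TET. The kidney-line marker list (8 genes, among them VIM, KRT18 and LIN28B) summed to 216 to 302 CPM in HEK293T and 633 to 816 CPM in Flp-In libraries. The hepatocyte, adipocyte and steroidogenic lists summed to at most 2.1 CPM in any library, and the fibroblast list to 1.15 to 14.2 CPM, with COL1A2 and DCN at 0 in all libraries, as were FGB and CYP11A1 of the other lists. The second RPRD1A_RPRD2_KD library stood apart from the other 15 HEK293T libraries: across 8615 genes its deviations followed GC content with a Spearman coefficient of 0.454, against -0.235 to 0.119 in the others. Among HEK293T libraries, reads outside genes made up 34.3% to 36.7% of reads in replicate 1 and 27.4% to 29.8% in replicate 2.

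Of the 31 members, 30 passed the filter on low counts in HEK293T and 28 in Flp-In cells. CYP51A1, the lanosterol demethylase, had 1 count in all, in the first RPRD1A_RPRD1A_KD library, and was tested nowhere. The GENCODE 29 annotation places AC000120.2 and AC000120.3 over CYP51A1 on the same strand, and their part in its low count was not tested. HSD17B7, a ketosteroid reductase of late cholesterol synthesis, had 141 counts over the 24 libraries, and ACSS2, which makes acetyl-CoA from acetate, had 195. Both were tested in HEK293T only, apart from the comparison of the lines. TM7SF2, a sterol reductase, had 419 counts, so its fold changes are imprecise. In bulk RNA, fewer cells that express a gene and less RNA per cell cannot be told apart.

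In the fit by group alone, silencing of RPRD genes left no member past the threshold. With the replicate number as a block and without the second RPRD1A_RPRD2_KD library, FADS1 alone was called lower in 3 of the 7 comparisons, as given below. By edgeR's quasi-likelihood test, 0 of 30 members were called at an adjusted p under 0.05 in each of the 7 comparisons with CTRL and in the mean of the 7 groups against CTRL, and DESeq2 also called 0 in each. Few genes of any kind were called: 0.00845% of 11834 genes in RPRD1A_KD, RPRD1B_KD, RPRD2_KD and RPRD1A_RPRD2_KD, and 0.0169% in the other groups and in the mean. At an unadjusted p under 0.05, edgeR marked 2 of 30 members in RPRD1A_KD (2.64% of all genes), 1 in RPRD1B_KD (3.46%), 3 in RPRD2_KD (3.84%) and 1 in RPRD1A_RPRD1A_KD (3.99%). It marked 3 in RPRD1A_RPRD2_KD (7.07%), 1 in RPRD1B_RPRD2_KD (2.51%), 1 in RPRD1A_RPRD1B_RPRD2_KD (3.99%) and 1 in the mean (4.04%). DESeq2 marked at most 2 in any of them. The median log2 fold change of the members lay between -0.03 and 0.06 in the 7 comparisons, beside -0.01 to 0 over all genes. The comparisons share the same 2 CTRL libraries, so their values are not independent of one another. In each comparison, 13.6% to 16.8% of all genes had both silenced libraries below both controls, beside 10% to 20% of the members. Both were above the controls for 13.9% to 15.4% of all genes and 6.67% to 16.7% of the members.

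**Figure D1:**
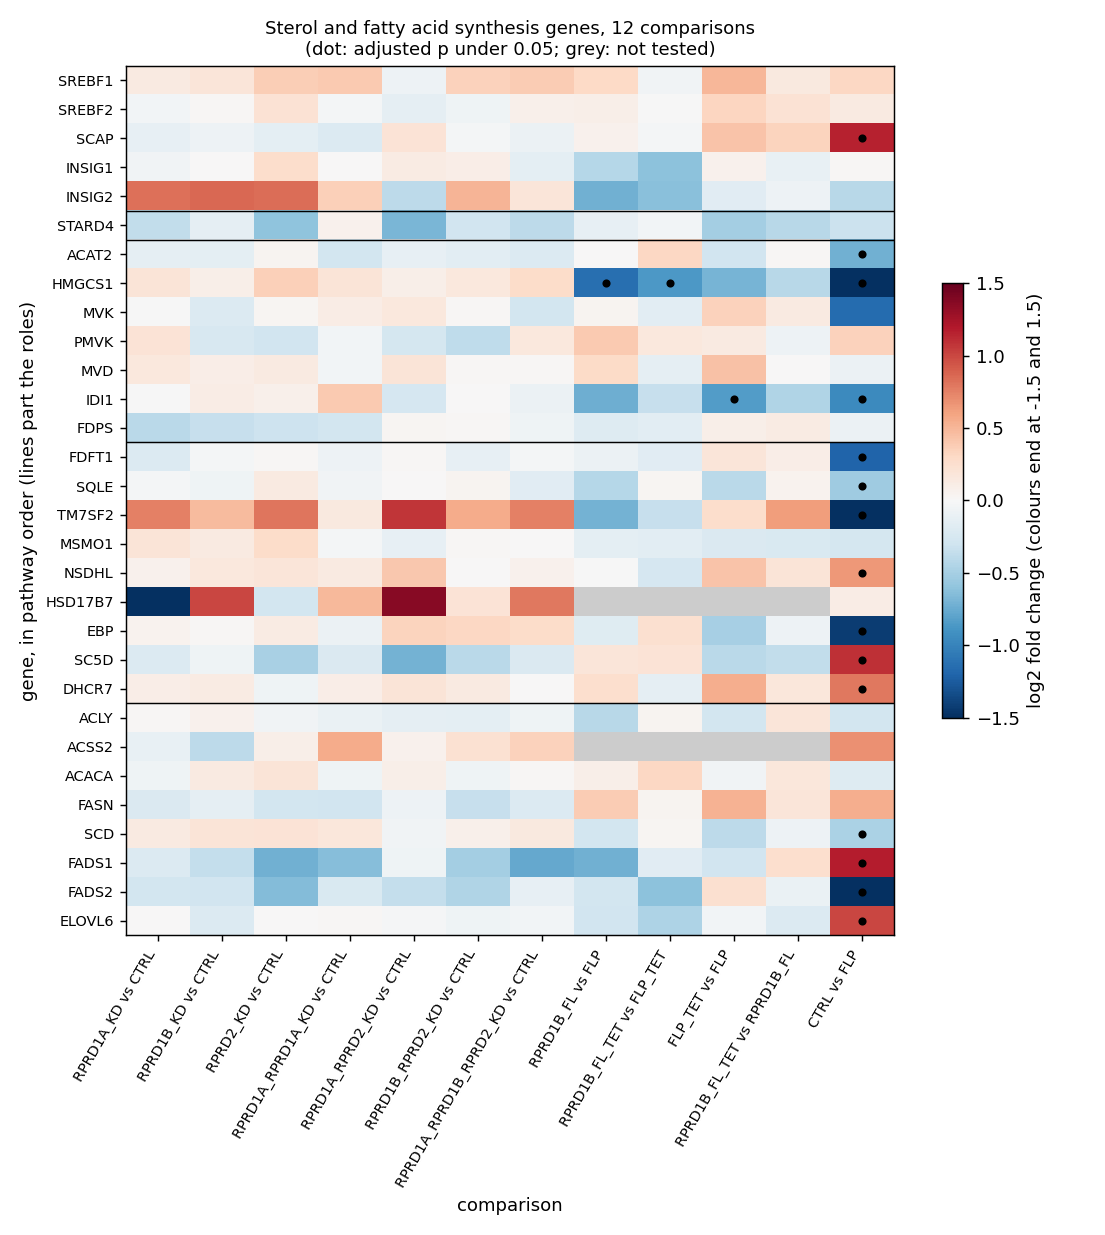
Log2 fold changes of the 30 tested members (rows, in pathway order, with lines between roles) in 12 comparisons (columns). Dots mark an adjusted p under 0.05 and grey cells were not tested. No member carries a dot in the 7 knockdown columns, HMGCS1 does in both RPRD1B_FL columns, and 15 members do in CTRL vs FLP.

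FADS1, the delta-5 desaturase that makes polyunsaturated fatty acids, was below both controls in all but 1 of the silenced libraries. Its level was 125 and 132 CPM in CTRL. In the 14 silenced libraries it ran from 67.1 through a median of 87.7 to 144 CPM, and 13 of 14 were below both controls. The exception, at 144 CPM, was the second RPRD1A_RPRD2_KD library. FADS1 was at 84.4 and 71.3 CPM in RPRD2_KD, 75.6 and 88.1 in RPRD1A_RPRD1A_KD, and 67.1 and 82.2 in RPRD1A_RPRD1B_RPRD2_KD. These groups lay farthest below control and did not overlap it, as for 15.9% to 16.8% of all genes in this direction. FADS1 was at 84.2 and 96.5 CPM in RPRD1B_RPRD2_KD, 87.4 and 112 in RPRD1B_KD, and 97.9 and 123 in RPRD1A_KD. These groups also stayed below both controls, by less. In RPRD1A_RPRD2_KD the libraries were at 106 and 144 CPM, on either side of the controls.

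The log2 fold change of FADS1 was -0.77 (SE 0.20, edgeR adjusted p = 0.887) in RPRD1A_RPRD1B_RPRD2_KD, -0.72 (SE 0.20, adjusted p = 1) in RPRD2_KD and -0.64 (SE 0.20, adjusted p = 1) in RPRD1A_RPRD1A_KD. It was -0.51 in RPRD1B_RPRD2_KD, -0.36 in RPRD1B_KD, -0.21 in RPRD1A_KD and -0.06 in RPRD1A_RPRD2_KD. Over the mean of the 7 silenced groups it was -0.47 (SE 0.14, edgeR adjusted p = 1). Taken within replicate numbers, 7 of 7 silenced libraries of replicate 1 (67.1 to 106 CPM) were below the CTRL value of 125, and 6 of 7 of replicate 2 (71.3 to 144 CPM) were below 132. FADS1 passed no threshold adjusted over all genes in the fit by group alone. With the replicate number as a block, edgeR's adjusted p for FADS1 was 0.073 in RPRD1A_RPRD1B_RPRD2_KD, 0.139 in RPRD2_KD and 0.195 in RPRD1A_RPRD1A_KD. With that block, once the library that stands apart was left out, it was 0.000228, 0.000507 and 0.00255 in these groups and 0.00169 for the mean, with log2 fold changes of -0.78, -0.72, -0.64 and -0.49. That fit called 129, 167, 123 and 162 genes of any kind. With the block and the GC correction it was 0.0363 in RPRD1A_RPRD1B_RPRD2_KD. The call of FADS1 thus depended on the fit, while the log2 fold changes moved little.

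FADS2, the delta-6 desaturase that acts before FADS1, was at 20.1 and 23.1 CPM in CTRL and at 10.5 to 22.3 (median 17) in the silenced libraries, 12 of 14 of them below both controls. Taken within replicate numbers, 7 of 7 silenced libraries were below the control of the same number in replicate 1 and 7 of 7 in replicate 2. FADS2 lay wholly below the controls in 5 of the 7 groups, beside 13.6% to 16.8% of all genes in each comparison. The lowest group was RPRD2_KD at 10.5 and 16.9 CPM (log2 fold change -0.65, SE 0.30, edgeR adjusted p = 1). In RPRD1A_KD it was at 15.5 and 19.9 CPM (-0.28, SE 0.29), in RPRD1B_RPRD2_KD at 14.7 and 17 (-0.45, SE 0.30) and in RPRD1A_RPRD2_KD at 15.9 and 18.3 (-0.36, SE 0.30). FADS1 and FADS2 lie on opposite strands of chromosome 11, and in GENCODE 29 the span of FADS1 (chr11:61799625-61829318) falls inside that of FADS2 (chr11:61792980-61867354). Whether the counting used strand is not given in the sources used here, so reads of one cannot be told apart with certainty from reads of the other.

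Among the regulators, INSIG2, which retains SCAP in the endoplasmic reticulum, showed the largest log2 fold changes, at the lowest levels. It was at 6.69 and 6.68 CPM in CTRL, 10.8 and 12.8 in RPRD1A_KD, 13.1 and 11.1 in RPRD1B_KD, and 10.1 and 13.8 in RPRD2_KD. All 6 libraries of the 3 single knockdowns were above both controls. In each of these groups, 14.4% to 15.4% of all genes likewise lay above both controls. The log2 fold changes of INSIG2 were 0.83 (SE 0.39), 0.86 (SE 0.38) and 0.84 (SE 0.39), with edgeR adjusted p = 1 in each. The combined knockdowns were mixed. INSIG2 was at 10.2 and 7.15 CPM in RPRD1A_RPRD1A_KD, both above the controls by less (log2 fold change 0.36, SE 0.41). It was at 12.6 and 5.82 in RPRD1B_RPRD2_KD, 6.15 and 8.81 in RPRD1A_RPRD1B_RPRD2_KD, and 5.28 and 5.08 in RPRD1A_RPRD2_KD, the last below both controls. Counts of INSIG2 were low, 7 to 38 per library over the series.

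SREBF1, the factor best known for fatty acid genes, was at 26.8 and 32.5 CPM in CTRL and at 19 to 44.5 in the silenced libraries, 9 of 14 above both controls. It was at 35.3 and 42.1 CPM in RPRD1A_RPRD1A_KD (log2 fold change 0.39, SE 0.31) and at 32.3 and 44.5 in RPRD1A_RPRD1B_RPRD2_KD (0.38, SE 0.31). The spread between libraries of a group was about as wide as these differences. SREBF1 lay wholly above the controls in 2 of the 7 groups, beside 13.9% to 15.4% of all genes in each comparison. SREBF2, the factor best known for sterol genes, stayed near its controls of 121 and 117 CPM, with log2 fold changes of -0.14 to 0.22 over the 7 comparisons. Those of SCAP ran from -0.21 to 0.20 and those of INSIG1, itself a sensitive SREBP target, from -0.15 to 0.26.

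None of the mevalonate and isoprenoid genes was called in the fit by group alone. HMGCS1, the synthase that makes HMG-CoA, was at 113 and 88.1 CPM in CTRL and 91.5 to 144 in the silenced libraries, with log2 fold changes of 0.09 to 0.36. Within replicate numbers, HMGCS1 was above the control in 6 of 7 silenced libraries of replicate 1 and 7 of 7 of replicate 2. FDPS, which makes farnesyl diphosphate, was at 206 and 166 CPM in CTRL and at 141 and 138 in RPRD1A_KD (log2 fold change -0.41, SE 0.16, edgeR adjusted p = 1). In RPRD1B_KD it was at 158 and 136 CPM (-0.34, SE 0.16). FDPS was below both controls in RPRD1A_KD, RPRD1B_KD, RPRD2_KD and RPRD1A_RPRD1A_KD, and overlapped them in the other 3 groups. In these 4 groups, 13.8% to 16.8% of all genes likewise lay below both controls. MVK and PMVK, the kinases that phosphorylate mevalonate, MVD, the decarboxylase after them, and ACAT2, a thiolase that supplies acetoacetyl-CoA, had log2 fold changes between -0.38 and 0.21.

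IDI1, the isomerase between isopentenyl and dimethylallyl diphosphate, was at 30.1 and 38.7 CPM in CTRL and at 45 and 45.2 in RPRD1A_RPRD1A_KD (log2 fold change 0.39, SE 0.32). In RPRD1A_RPRD2_KD its libraries were far apart, at 44.9 and 15.9 CPM, and the log2 fold change was -0.25 (SE 0.34). The lower value belongs to the library that stands apart. Without it IDI1 stood at 0.39 (SE 0.24, edgeR adjusted p = 1), and without the first library of the group at -1.16 (SE 0.26, adjusted p = 0.0144), so the direction depended on the library kept.

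In the steps from squalene to cholesterol, SC5D, the lathosterol desaturase, was at 27.3 and 32.1 CPM in CTRL and at 15.2 to 32.8 (median 24.8) in the silenced libraries, 12 of 14 below both controls. It was lowest in RPRD1A_RPRD2_KD, at 22.2 and 15.2 CPM (log2 fold change -0.71, SE 0.28, edgeR adjusted p = 0.676). In RPRD1B_RPRD2_KD it was at 18.9 and 26.2 CPM (-0.41, SE 0.28). Within replicate numbers, SC5D was below the control in 6 of 7 silenced libraries of replicate 1 and 7 of 7 of replicate 2. EBP, a sterol isomerase of the late pathway, lay on the other side of its controls: 108 and 110 CPM in CTRL and 85.9 to 151 (median 119) in the silenced libraries, 12 of 14 above both controls. In RPRD1A_RPRD1B_RPRD2_KD EBP was at 134 and 130 CPM (0.28, SE 0.17). SC5D lay wholly below the controls in 5 of the 7 groups, and EBP wholly above them in 5. In each comparison, 13.6% to 16.8% of all genes lay wholly below the shared controls and 13.9% to 15.4% wholly above. NSDHL, which helps to remove methyl groups from the sterol ring, was at 167 and 133 CPM in CTRL and at 164 and 238 in RPRD1A_RPRD2_KD (0.40, SE 0.18, edgeR adjusted p = 0.685). The 238 CPM belongs to the library that stands apart, and the other lies between the controls.

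The remaining members of this branch had small fold changes or rested on few counts. FDFT1, the squalene synthase, was at 104 and 117 CPM in CTRL and at 78.7 to 121 in the silenced libraries, 5 of 14 below and 2 above both controls. DHCR7, which makes cholesterol from its last precursor, was at 103 and 137 CPM in CTRL and at 94.1 to 163 in the silenced libraries, 1 below and 5 above both. None of the 7 silenced groups lay wholly outside the controls for either gene. FDFT1, SQLE, the squalene epoxidase, MSMO1, the methylsterol oxidase, and DHCR7 had log2 fold changes between -0.20 and 0.27. TM7SF2 had positive log2 fold changes in all 7 comparisons (0.15 to 1.07), against controls that differed strongly from each other, at 0.558 and 5.34 CPM. HSD17B7 ran from -1.66 to 1.37 at 0.338 to 6.87 CPM. STARD4, which moves cholesterol between membranes, was at 5.58 and 13.8 CPM in CTRL, and all 14 silenced libraries (5.64 to 11.7 CPM) lay between these controls. Its log2 fold change over the mean of the 7 groups was -0.35 (SE 0.32), and it turned to 0.48 (SE 0.47) without the second CTRL library.

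The remaining fatty acid genes were not called in any knockdown comparison. ACLY, which makes cytosolic acetyl-CoA from citrate, was at 466 and 470 CPM in CTRL and 391 to 512 in the silenced libraries. SCD, the stearoyl-CoA desaturase, was at 504 and 516 CPM in CTRL and 496 to 640 in the silenced libraries, 10 of 14 above both controls. SCD lay wholly above the controls in 4 of the 7 groups and wholly below in 1. In each comparison, 13.9% to 15.4% of all genes lay wholly above and 13.6% to 16.8% wholly below. FASN, the fatty acid synthase, was at 339 and 755 CPM in CTRL, and all 14 silenced libraries (356 to 626 CPM) lay between. Within replicate numbers, 7 of 7 were above the control in replicate 1 and 7 of 7 below it in replicate 2. Its closeness to control thus cannot be judged. ACACA, the acetyl-CoA carboxylase, and ELOVL6, an elongase of saturated fatty acids, had log2 fold changes between -0.20 and 0.19, and ACSS2 between -0.39 and 0.56 at 2.03 to 6.77 CPM. Of the further pathway genes listed, edgeR called 0 of 27 tested sterol genes and 0 of 25 tested fatty acid genes in any knockdown comparison or in the mean, and marked 0 to 4 and 0 to 2 of them at an unadjusted p under 0.05.

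**Figure D2:**
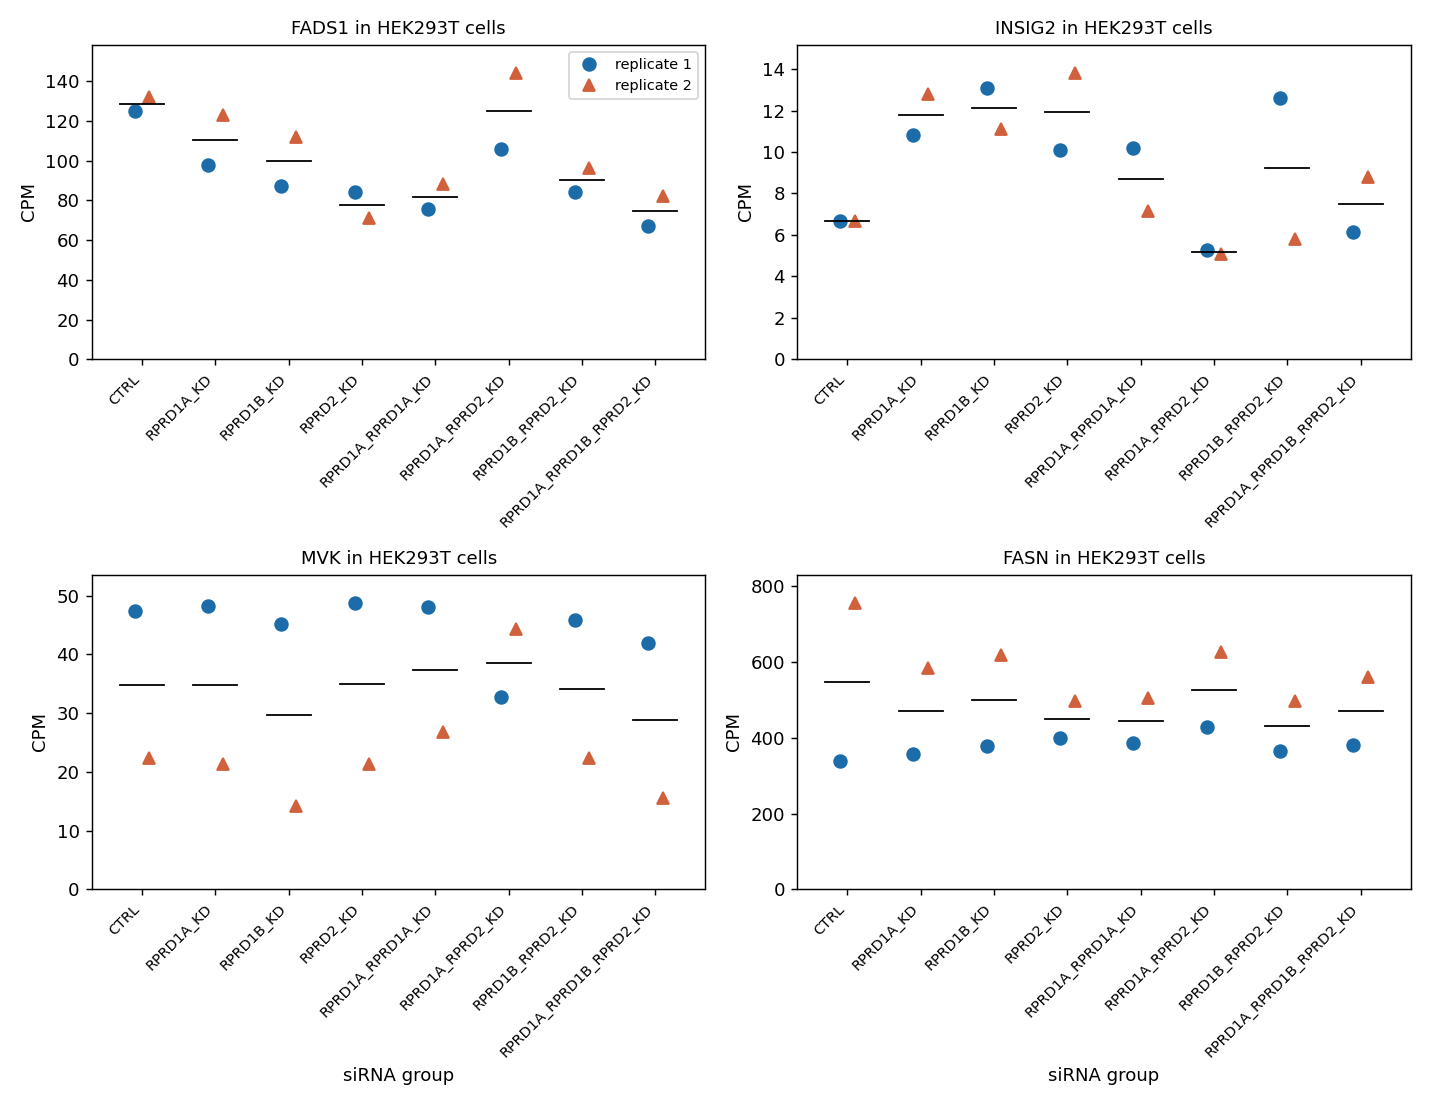
CPM (TMM scale, linear axis from 0) of FADS1, INSIG2, MVK and FASN in the 8 HEK293T groups, with circles for replicate 1, triangles for replicate 2 and a bar at each group's mean. FADS1 is below both controls in 13 of 14 silenced libraries, INSIG2 is above both controls in the single knockdowns, and MVK and FASN part by replicate number.

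Several members differed by replicate number across the siRNA groups. In an edgeR fit of all HEK293T libraries with group and replicate number, 7 of 30 members were called between replicate 2 and replicate 1, beside 20.1% of all genes, 4 of them higher and 3 lower in replicate 2. MVK was at 32.8 to 48.7 CPM in the 8 replicate 1 libraries and at 14.2 to 44.4 in replicate 2 (log2 difference -0.99, SE 0.16, adjusted p = 0.000238). It was lower in replicate 2 in 7 of 8 groups, the exception being RPRD1A_RPRD2_KD, whose second library stands apart. FASN was at 339 to 428 CPM in replicate 1 and at 497 to 755 in replicate 2, higher in 8 of 8 groups (0.59, SE 0.07, adjusted p = 3e-05). Its 2 sets of libraries did not overlap.

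DHCR7 (0.37, SE 0.08), INSIG1 (0.37, SE 0.07) and FDFT1 (0.21, SE 0.07) were higher in replicate 2 in 8 of 8 groups, with edgeR adjusted p = 0.00189, 0.00122 and 0.034. ACAT2 (-0.36, SE 0.06) and HMGCS1 (-0.30, SE 0.06) were lower in 8 of 8 groups, with adjusted p = 0.000245 and 0.00232. Without the library that stands apart, 11 of 30 members were called, beside 27.2% of all genes. FADS1 had a log2 difference of 0.20 (SE 0.08, adjusted p = 0.0668) between replicate numbers and was higher in replicate 2 in 7 of 8 groups, RPRD2_KD being the exception. The labels give no date or batch, so what the replicate number stands for was not tested.

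In Flp-In cells without tetracycline, HMGCS1 was lower in the RPRD1B_FL line than in its parent. It was at 549 and 458 CPM in FLP and at 219 and 238 in RPRD1B_FL, -1.13 on the log2 scale (SE 0.18, edgeR adjusted p = 0.000859, at most 0.0236 over the alternatives). HMGCS1 was the only member called, 1 of 28, beside 1.18% of all 11948 genes tested and 0.954% called lower. With DESeq2 it was likewise the only one. At an unadjusted p under 0.05 edgeR marked 8 of 28 members, 28.6%, beside 13.3% of all genes. The groups did not overlap for 11 members with lower levels in RPRD1B_FL (39.3% of 28, beside 21.7% of all genes) and for 3 with higher levels (10.7%, beside 22.6%). The median log2 fold change of the members was -0.14, beside 0.01 over all genes. These fold changes also followed GC content, with Spearman's coefficients of 0.52 over the members and 0.26 over all genes with a GC value. With a correction for GC content the coefficients were 0.29 and 0.01, and the median of the members was -0.08. The part of GC content in the larger share of lower members was not tested.

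FADS1 was at 61.1 and 52.7 CPM in FLP and at 34 and 34.8 in RPRD1B_FL (log2 fold change -0.72, SE 0.19, edgeR adjusted p = 0.0605). IDI1 was at 80.1 and 55 CPM in FLP and at 42.4 and 38.2 in RPRD1B_FL (-0.73, SE 0.21, adjusted p = 0.0952). Neither pair of groups overlapped, and neither gene passed the threshold, though IDI1 did without FLP replicate 2 (adjusted p = 0.0213). ACLY was at 612 and 520 CPM in FLP and at 450 and 393 in RPRD1B_FL (-0.42, SE 0.15, adjusted p = 0.188). INSIG1 (-0.43, SE 0.17), SQLE (-0.43, SE 0.17) and TM7SF2 (-0.71, SE 0.32) also had unadjusted p under 0.05 and lower levels, and FASN had a higher one (0.38, SE 0.15). With a correction for GC content FADS1 (-0.74, SE 0.16, adjusted p = 0.0137) and ACLY (-0.47, SE 0.12, adjusted p = 0.0306) were called beside HMGCS1.

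With tetracycline, HMGCS1 was again lower in the RPRD1B_FL line. It was at 300 and 322 CPM in FLP_TET and at 136 and 210 in RPRD1B_FL_TET, which is -0.86 on the log2 scale (SE 0.18, edgeR adjusted p = 0.013). It was the only member called of 28, beside 1.11% of all genes, and edgeR marked 3 of 28 at an unadjusted p under 0.05, beside 10.3%. The call was kept without RPRD1B_FL_TET replicate 2 and lost without any 1 of the other libraries: adjusted p was 0.0792 without RPRD1B_FL_TET replicate 1, 0.168 without FLP_TET replicate 1 and 0.276 without FLP_TET replicate 2. INSIG1 was at 152 and 123 CPM in FLP_TET and at 90.6 and 91.6 in RPRD1B_FL_TET (-0.61, SE 0.17, adjusted p = 0.102). FADS2 was at 68.9 and 83.8 CPM in FLP_TET and at 51.2 and 49.6 in RPRD1B_FL_TET (-0.61, SE 0.18, adjusted p = 0.12). The groups did not overlap for either gene, as for 18.8% of all genes in this direction, and with the GC correction both genes were called, with adjusted p = 0.0249 and 0.0362. FADS1 was closer in these groups, at 47.9 and 44.7 against 42.8 and 40.2 CPM (-0.17, SE 0.19).

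**Figure D3:**
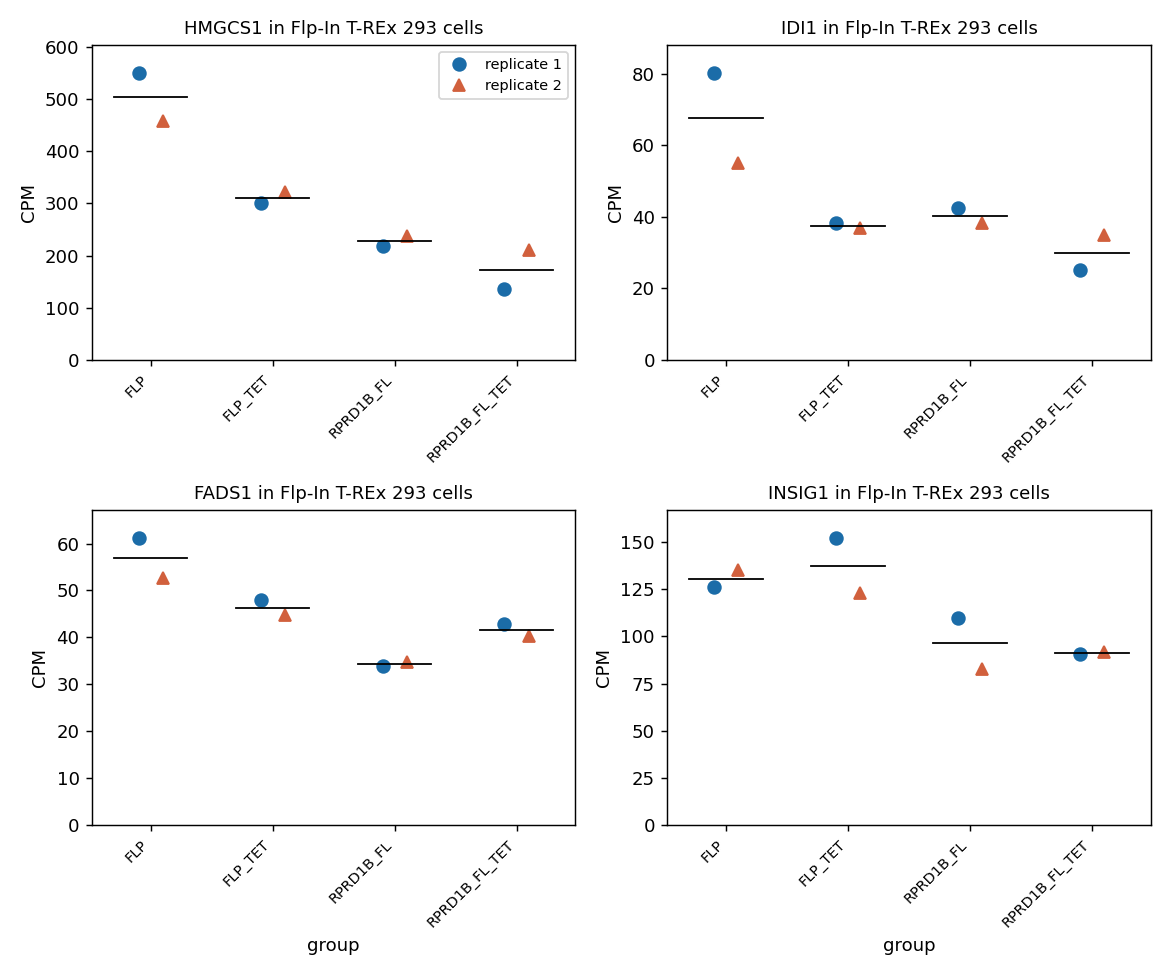
CPM (TMM scale, linear axis from 0) of HMGCS1, IDI1, FADS1 and INSIG1 in the 4 Flp-In T-REx 293 groups, with circles for replicate 1, triangles for replicate 2 and a bar at each group's mean. HMGCS1 runs from 549 and 458 CPM in FLP to 136 and 210 in RPRD1B_FL_TET.

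HMGCS1 lies on the short arm of chromosome 5 (chr5:43289395-43313512, minus strand, GRCh38, GENCODE 29), and other genes of that arm were lower in the RPRD1B_FL line too. The 90 tested genes of the arm had a median log2 fold change of -0.52 both without and with tetracycline, and 22 and 16 of them were called lower and 0 higher. The 461 tested genes of the long arm had medians of -0.09 and -0.05. Counted from the lowest, HMGCS1 ranked 15 and 23 among the 90. The part of its neighbours' shared difference in the HMGCS1 result was not tested.

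LSS, the lanosterol synthase, was the only further pathway gene called in either comparison of the lines within Flp-In cells. It was at 35.2 and 34.5 CPM in FLP_TET and at 15.3 and 21.4 in RPRD1B_FL_TET (log2 fold change -0.95, SE 0.23, edgeR adjusted p = 0.0426). Without tetracycline it was at 29.4 and 34.2 CPM in FLP and at 19 and 19.1 in RPRD1B_FL (-0.74, SE 0.23, adjusted p = 0.127). LSS lies on chromosome 21, where the median over 105 tested genes was -0.73 without tetracycline and -0.70 with it, and 40 and 33 were called lower. Of the further sterol genes 1 of 28 was called with tetracycline and 0 of 28 without it (edgeR marked 2 and 5 at an unadjusted p under 0.05), and of the further fatty acid genes 0 of 24 in both (1 and 3).

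Tetracycline alone, in the parent line, came with a lower level of IDI1. It was at 80.1 and 55 CPM in FLP and at 38.3 and 36.8 in FLP_TET, which is -0.84 on the log2 scale (SE 0.21, edgeR adjusted p = 0.04995). This was 1 of 28 members, beside 1.02% of all genes and 0.795% called lower. The call sits at the threshold and was lost with the GC correction (-0.61, SE 0.17, adjusted p = 0.0691) and with a mean count of 50 or more (adjusted p = 0.0715), and over the alternatives adjusted p ran from 0.00573 (without FLP replicate 2) to 0.629 (without FLP replicate 1). It was also lost without FLP_TET replicate 1 (0.336) or replicate 2 (0.344). This comparison shares the FLP libraries with that of RPRD1B_FL vs FLP. HMGCS1, at 549 and 458 CPM in FLP and 300 and 322 in FLP_TET, stood at -0.70 on that scale (SE 0.17, adjusted p = 0.0513). It was called with DESeq2 (adjusted p = 0.0255), and over the alternatives its adjusted p ran from 0.00227 (no filter on low counts) to 0.629 (without FLP replicate 1). DESeq2 called 4 members in this comparison, EBP, HMGCS1 and IDI1 lower and FASN higher. DHCR7 was at 62.6 and 76.2 CPM in FLP and at 105 and 100 in FLP_TET (0.55, SE 0.19, adjusted p = 0.0969). EBP was at 316 and 269 CPM in FLP and at 195 and 219 in FLP_TET (-0.50, SE 0.15, adjusted p = 0.0717), and with the GC correction it was the member called (-0.63, SE 0.13, adjusted p = 0.0222).

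At an unadjusted p under 0.05 edgeR marked 11 of 28 members with tetracycline in the parent, 39.3%, beside 22.7% of all genes. Those with lower levels in FLP_TET were IDI1, HMGCS1, EBP, SCD and SQLE, and those with higher levels were DHCR7, FASN, SREBF1, MVD, NSDHL and SCAP. This division went along with the GC content of the transcripts except for EBP. EBP was lower at 53.5% GC, while NSDHL was higher at 50.5%. Of 12 members under 50% GC, 10 had negative log2 fold changes (median -0.30), and of 16 above it, 12 had positive ones (median 0.29). Across the 28 members, which share the same 4 libraries, Spearman's coefficient between log2 fold change and GC content was 0.76, and across all 11750 genes with a GC value it was 0.55. Library deviations followed GC content with coefficients of -0.553 and -0.369 in FLP and 0.308 and 0.463 in FLP_TET. After the GC correction the coefficient over the members was 0.24 and over all genes 0.03, and the medians were -0.08 and 0.05.

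**Figure D4:**
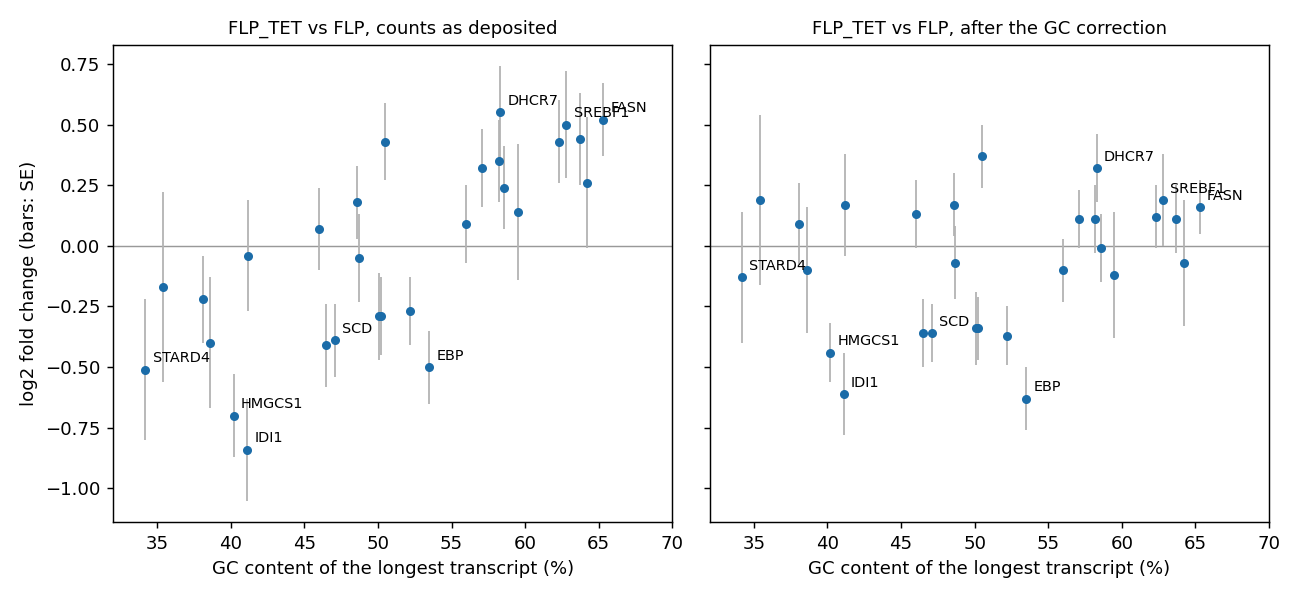
Log2 fold change of the 28 tested members in FLP_TET vs FLP (points, bars of 1 SE) against the GC content of each gene's longest transcript, from the deposited counts (left) and after the GC correction (right). The slope visible on the left is smaller on the right, where IDI1, EBP and HMGCS1 are still the lowest.

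In the RPRD1B_FL line, tetracycline moved no member past the threshold. By edgeR 0 of 28 members and 0% of all genes were called, DESeq2 called 0 members, and edgeR marked 1 of 28 at an unadjusted p under 0.05 (6.13% of all genes), as did DESeq2. The one marked by edgeR was HMGCS1, at 219 and 238 CPM in RPRD1B_FL and 136 and 210 in RPRD1B_FL_TET (log2 fold change -0.42, SE 0.18, edgeR adjusted p = 0.788), which was called only without RPRD1B_FL_TET replicate 2 (-0.78, adjusted p = 0.0347). IDI1 was at 42.4 and 38.2 CPM and then at 25.2 and 34.9 (-0.45, SE 0.23), and TM7SF2 at 6.58 and 6.49 and then at 10.3 and 10.3 (0.63, SE 0.33). STARD4 was at 9.88 and 13 CPM and then at 9.17 and 8.04 (-0.42, SE 0.31). IDI1 and HMGCS1 thus lay lower with tetracycline in both lines. Fold changes in the RPRD1B_FL line also followed GC content: Spearman's coefficient was 0.67 over the members and 0.44 over all genes with GC values. After the GC correction the coefficients were 0.22 and 0.03. The GC content was 41.1% for IDI1 and 40.2% for HMGCS1, and its part in their shared direction was not tested. In the edgeR fit as designed only IDI1 in the parent was called, and DESeq2 called both genes there.

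The interaction of line and tetracycline was called for 0 of 28 members and 0% of all genes by edgeR, with 1 of 28 at an unadjusted p under 0.05 (3.99% of all genes), and for 0 members by DESeq2, also with 1. ACLY had an interaction of 0.46 on the log2 scale (SE 0.21, edgeR adjusted p = 0.991), from 612 and 520 to 463 and 476 CPM in the parent and from 450 and 393 to 528 and 445 in the RPRD1B_FL line. The interaction was 0.54 for FADS1 (SE 0.26) and 0.46 for SQLE (SE 0.25). For HMGCS1 it was 0.28 (SE 0.25), so a different response of the lines was not detectable at this spread.

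More members were called between the 2 cell lines than in any comparison within a line. Between CTRL in HEK293T and FLP in Flp-In cells, 15 of 30 members were called by edgeR, 50%, beside 33.4% of all 12803 genes tested, 6 of them higher in CTRL (beside 16.1%) and 9 lower (beside 17.4%). The groups did not overlap for 12 members with lower levels in CTRL (40% of 30, beside 32.9% of all genes) and for 10 with higher levels (33.3%, beside 32.9%). The median log2 difference (CTRL minus FLP) of the members was -0.14, beside 0.02 over all genes. Cell line, siRNA transfection and experiment cannot be told apart in this comparison. All 3 called mevalonate genes were lower in CTRL, and called genes of desaturation and late sterol steps lay on both sides. Without FLP replicate 1, 9 members were called.

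HMGCS1 had the largest difference, at 113 and 88.1 CPM in CTRL against 549 and 458 in FLP (log2 difference -2.33, SE 0.21, edgeR adjusted p = 5.2e-09). The 95 tested genes of the short arm of chromosome 5 had a median of -0.74 here, and HMGCS1 ranked 11 from the lowest. ACAT2 was at 270 and 184 against 426 and 323 CPM (-0.72, SE 0.21, adjusted p = 0.00888), and IDI1 at 30.1 and 38.7 against 80.1 and 55 (-0.96, SE 0.28, adjusted p = 0.0105). MVK missed the threshold at 47.4 and 22.3 against 73.7 and 78.5 CPM (-1.15, SE 0.45, adjusted p = 0.0517), and its CTRL libraries part by replicate number as described above. PMVK, MVD and FDPS had log2 differences between -0.09 and 0.34.

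Of the squalene to cholesterol steps, 4 genes were lower and 3 higher in CTRL. FDFT1 was at 104 and 117 against 240 and 268 CPM in FLP (log2 difference -1.20, SE 0.18, edgeR adjusted p = 1.66e-05). SQLE was at 36.3 and 53.9 against 65.6 and 65.6 CPM (-0.53, SE 0.19, adjusted p = 0.0336), and EBP at 108 and 110 against 316 and 269 (-1.42, SE 0.17, adjusted p = 4.97e-07). TM7SF2, on few counts, was at 0.558 and 5.34 against 9.16 and 12.1 CPM (-1.74, SE 0.54). The genes higher in CTRL were late-acting enzymes and NSDHL. SC5D was at 27.3 and 32.1 against 15.3 and 12.7 CPM (1.10, SE 0.27, adjusted p = 0.00229), DHCR7 at 103 and 137 against 62.6 and 76.2 (0.79, SE 0.25, adjusted p = 0.0161), and NSDHL at 167 and 133 against 87.4 and 103 (0.65, SE 0.18, adjusted p = 0.00768).

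Among the fatty acid genes the 2 neighbouring desaturases went in opposite directions. FADS1 was at 125 and 132 CPM in CTRL against 61.1 and 52.7 in FLP (log2 difference 1.18, SE 0.19, edgeR adjusted p = 3.84e-05). FADS2 was at 20.1 and 23.1 against 62.2 and 66.5 CPM (-1.57, SE 0.24, adjusted p = 1.52e-05). ELOVL6 was at 50.8 and 45.9 against 23.3 and 24.7 CPM (1.00, SE 0.20, adjusted p = 0.000472). SCD was slightly lower in CTRL, at 504 and 516 against 733 and 676 CPM (-0.47, SE 0.16, adjusted p = 0.0244). FASN, ACACA, ACLY and ACSS2 were not called. Of the regulators, SCAP alone was called, at 315 and 274 against 114 and 150 CPM (1.15, SE 0.18, adjusted p = 2.92e-05), while SREBF1, SREBF2, INSIG1 and INSIG2 had log2 differences between -0.42 and 0.31.

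**Figure D5:**
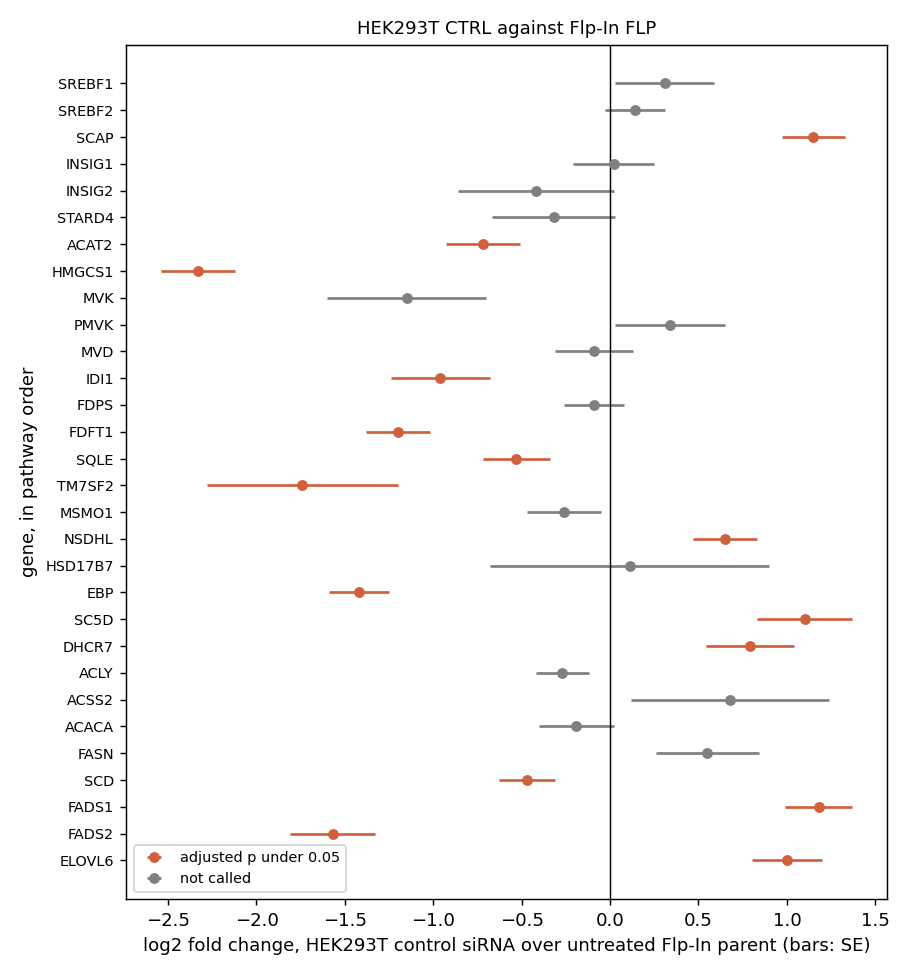
Log2 difference (CTRL minus FLP, bars of 1 SE) of the 30 tested members in pathway order from the regulators at the top to the fatty acid genes at the bottom. The 15 called members are drawn in orange, from HMGCS1 at -2.33 to FADS1 at 1.18.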

How the data were processed

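Values deposited by the authors are raw read counts by gene name in a separate table for each library. The submitters' processing notes name FastQC, STAR, HTSeq, DESeq2 and the build GRCh38. The annotation, the strand setting and any filter are not given in the sources used here. The 5 closing rows of each table, which name no gene, were left out, and reads outside genes took 15.3% to 36.7% of reads. Per the labels' protocols, libraries were made with the QuantSeq 3′ REV kit. Replicate numbers come from the titles.

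Tests used edgeR 4.0.16 with limma 3.58.1 under R 4.3.3: TMM scaling, filterByExpr by group (at least 10 counts, total at least 15), one quasi-likelihood fit per cell line (16 and 8 libraries; all 24 for CTRL vs FLP), Benjamini-Hochberg adjustment over all genes tested, called under 0.05. SE is the size of the log2 fold change divided by the root of its F statistic. Levels are CPM on a TMM scale over 24 libraries. Alternatives were DESeq2 1.42.0, RLE size factors, a mean count of 50 or more, no filter, fitting compared groups alone, a replicate block, a GC correction (lowess, span 0.3, as an offset), both together, leaving out each library, and leaving out the second RPRD1A_RPRD2_KD library with and without the block. The replicate-number test in HEK293T was added after seeing the data. The scripts were tested on simulated counts. GENCODE 29 gave positions and GC content, with 54848 of 58138 names matching 1 gene; chromosome 5 arms were parted at its widest interval without a gene.

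The members, the lists of 33 further sterol and 27 further fatty acid genes and the marker lists were chosen with earlier results of these data known. Values per library are given for every member called in a comparison and, where fewer than 3 were called, for those with the largest absolute log2 fold change at a group mean of 10 CPM or more, up to 3. Other values were chosen after they were seen. Some results of these lists are not reported here.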

Additional observations from a re-analysis of the deposited data

How the results depend on the processing

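The number of members called stayed within 1.5 times its main value in 170 recomputed counts and moved further in 28. In the knockdown comparisons the count was 0 throughout, except for FADS1: with the replicate number as a block and without the second RPRD1A_RPRD2_KD library, 1 member was called in RPRD2_KD (adjusted p = 0.000507), RPRD1A_RPRD1A_KD (0.00255), RPRD1A_RPRD1B_RPRD2_KD (0.000228) and the mean of the 7 groups (0.00169), and with the GC correction and the block 1 in RPRD1A_RPRD1B_RPRD2_KD (0.0363). The block alone gave FADS1 adjusted p = 0.139, 0.073 and 0.211 in RPRD2_KD, RPRD1A_RPRD1B_RPRD2_KD and the mean. Leaving out libraries gave 0 to 1 in RPRD1A_RPRD2_KD (IDI1). In RPRD1B_FL vs FLP the count of 1 became 3 with the GC correction, 4 with it and the block, 2 without a filter, and 1 to 2 with a library left out. In RPRD1B_FL_TET vs FLP_TET it became 3, 3, 2 and 0 to 1 under the same settings. In FLP_TET vs FLP it became 4 with DESeq2, 0 with a mean count of 50 or more, 3 without a filter, 6 with only the compared groups, 2 with RLE size factors, 0 with the replicate block (IDI1 adjusted p = 0.057) and 0 to 4 with a library left out. It was 0 to 1 in RPRD1B_FL_TET vs RPRD1B_FL and 9 to 16 in CTRL vs FLP with a library left out (9 without FLP replicate 1). The log2 fold change of STARD4 in the mean of the 7 groups reversed to 0.48 without CTRL replicate 2 (-0.81 without CTRL replicate 1), and that of IDI1 in RPRD1A_RPRD2_KD, -0.25, turned to 0.39 without the second library of that group. The number of all genes called moved too. In FLP_TET vs FLP it was 122 in the main fit, 257 with DESeq2 and 0 with a mean count of 50 or more. It was 762 without a filter, 1273 with only the compared groups, 121 with RLE and 1 with the block. In RPRD1B_FL vs FLP it was 141, then 317 with the GC correction, 328 with it and the block, and 292 without a filter. In RPRD1B_FL_TET vs FLP_TET these were 133, 264, 266 and 229. The cause of these shifts was not tested.

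As a check of pairing, same-numbered libraries' deviations from their group means were correlated: mean 0.34 (-0.011 to 0.53) over 28 pairs of HEK293T groups and -0.018 (-0.35 to 0.45) over 6 pairs of Flp-In groups. As not every pair was above 0.1, the numbers were not taken as pairs in the design, although HEK293T libraries of the same number deviated together on average and many genes differed by number. In HEK293T the fit by group alone thus kept this shared deviation in its spread between libraries, which limits what its lack of calls can show. With 2 libraries a group and 1817246 to 3531106 counts each, differences in CYP51A1, HSD17B7, ACSS2 and TM7SF2 were mostly beyond reach.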

Other observations

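Between CTRL and FLP, edgeR called 3 of 27 further sterol genes higher in CTRL, beside 16.1% of all genes, and 8 lower, beside 17.4%. Among the lower were ABCG1, which exports cholesterol (log2 difference -1.87, SE 0.41, adjusted p = 0.00106), UBXN8 (-1.03), LSS (-1.0), FDXR, the reductase that feeds electrons to mitochondrial steroid enzymes (-0.99), MYLIP, a ligase that degrades lipoprotein receptors (-0.91), and ERLIN2 (-0.68). Higher were RNF139 (0.85), SOAT1, which esterifies cholesterol (0.77), and ERG28 (0.61).

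Of 25 further fatty acid genes, 4 were higher and 3 lower in CTRL, beside the same shares of all genes (33.4% called in all). ME1, a cytosolic source of NADPH for lipogenesis, was lower (-1.66, SE 0.26, adjusted p = 2.56e-05), as were SCD5 (-1.49), a desaturase related to SCD, and ELOVL2 (-0.60). PNPLA3 (1.29), ELOVL1 (1.16), HSD17B12 (0.71) and IDH1 (0.57) were higher. Cell line, transfection and experiment cannot be told apart here either.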
